A study of Mus musculus with 4 samples.

Results

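The genes described here build heparan sulfate chains or carry them at the cell surface. They were chosen by symbol: Ext1, Ext2 and Ndst1 for the chain, Sdc1, Sdc2, Sdc3 and Sdc4 for the syndecans, Gpc1 and Gpc4 for the glypicans, and Hspg2 for perlecan. Of these 10 genes, 9 were measured among the 19505 named genes of the array. Each of the 9 had 1 probe set, and Ndst1 was not analysed here. RNA was measured on the Clariom S mouse array in MC38 cells, a mouse line from a colon adenocarcinoma, and each value is a normalized log2 signal.

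The knockout group held clone 1 and clone 2, in which Mgat5 was targeted with CRISPR-Cas9. The control group held MOCK cells, which carry an empty vector, and WT cells, the parental condition, with n = 2 arrays per group. Mgat5 encodes N-acetylglucosaminyltransferase V, which makes a branch of complex N-glycans in the Golgi. Each knockout array comes from 1 clone and neither control is titled as a clone, so effects of cloning and of Mgat5 loss cannot be told apart. Nothing in the labels says that arrays came from separate cultures, so p-values measure only the spread between these 4 arrays, which may be technical. Their number limits the precision of every value below.

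Heparan sulfate is a long, sulfated sugar chain that is built in the Golgi on core proteins. The chain starts from a short linker sugar on a serine of the core, is polymerised by the paired enzymes EXT1 and EXT2, and is then sulfated at chosen positions, first by NDST enzymes. Syndecans span the membrane, glypicans are held by a lipid anchor, and perlecan is secreted into basement membranes. The chains bind growth factors, chemokines and matrix proteins, and syndecan-1 is the main syndecan of many epithelia. N-glycan branching by Mgat5 uses the same nucleotide sugar, UDP-GlcNAc, that EXT enzymes build into the chain.

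The scale of the arrays differed at the bright end. Over the 22206 probe sets tested, the top percentile began at 15.84 log2 units in clone 1 and 15.79 in clone 2, against 15.90 in MOCK and 14.74 in WT. The median of all differences, knockout minus control, was 0.18 log2 units as deposited and -0.02 after quantile normalization. Over the 11687 probe sets whose mean lay above the negative control features these medians were 0.35 and -0.04. The shift was thus larger among brighter probe sets. Each difference below should be read against the shift at its own signal level and beside its quantile-normalized value. The median of the negative control features ran from 5.16 to 5.20 log2 units in the clones and from 5.12 to 5.22 in the controls. Mgat5 had signals of 7.46 in clone 1 and 7.57 in clone 2, against 8.19 in MOCK and 8.27 in WT (difference -0.71, SE 0.37, limma adjusted p = 0.631). None of the 10 epithelial markers, Epcam, Cdh1 and Cdx2 among them, lay above the negative control median on all 4 arrays, and their signals reached 5.86 at most. Leukocyte and endothelial markers did so in 0 of 6 and 0 of 6. Among fibroblast markers 3 of 7 did so, namely Col3a1, Dcn and, named after its values were seen, Pdgfrb. The summed signal of the fibroblast markers ran from 12.63 to 13.03 log2 units in the clones and from 13.82 to 14.21 in the controls. The sum is carried by its brightest genes: 4 of the 7 were higher in the clones as deposited, with a list median of 0.42 log2 units, and 3 after quantile normalization, with a median of -0.036. Dcn had the largest difference, with 8.94 in clone 1 and 11.18 in clone 2, against 12.95 in MOCK and 13.61 in WT. The part of this marker difference in the results below was not tested.

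Of the 9 genes, only Ext1 and Sdc2 read higher on both clone arrays than on both control arrays on either scale, as deposited and quantile normalized. That order was met by 27.8% of all probe sets as deposited and by 19.2% after quantile normalization. Neither gene passed the limma test over all probe sets at an adjusted p under 0.05. Of the 9 genes 0 did, where 0.0405% of all probe sets were called as deposited and 0.0045% after quantile normalization. At an unadjusted p under 0.05 limma found 2 of the 9, Ext1 and Sdc2, against 8.75% of all probe sets in either direction and 7.54% higher. After quantile normalization it found 1, Ext1, against 8.92% in either direction and 4.7% higher. With trend and robust estimation limma called 0 of the 9 as well, where it called 340 of all 22206 probe sets. In bulk RNA, fewer cells with a transcript and less RNA per cell cannot be told apart.

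As deposited, both clones lay above both controls for 3 of the 9 genes, Ext1, Sdc2 and Hspg2, and 27.8% of all probe sets did the same. After quantile normalization 2 of the 9 did so, Ext1 and Sdc2, and the share of all probe sets was 19.2%. Among the brighter probe sets the shares were 34.2% and 18.5%. The reverse order, both clones below both controls, was met by 0 of the 9 genes on either scale, against 11.7% and 21.3% of all probe sets. With clone 1, MOCK or WT left out the count of higher genes was 5 in each case, while the share of all probe sets became 50.0%, 54.7% and 35.0%. With clone 2 left out it was 4, against 40.9%. The counts of 3 and 2 of 9 are thus near the background, and they do not set the 9 genes apart. Their median difference was 0.45 log2 units as deposited and 0.01 after quantile normalization.

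**Figure D1:**
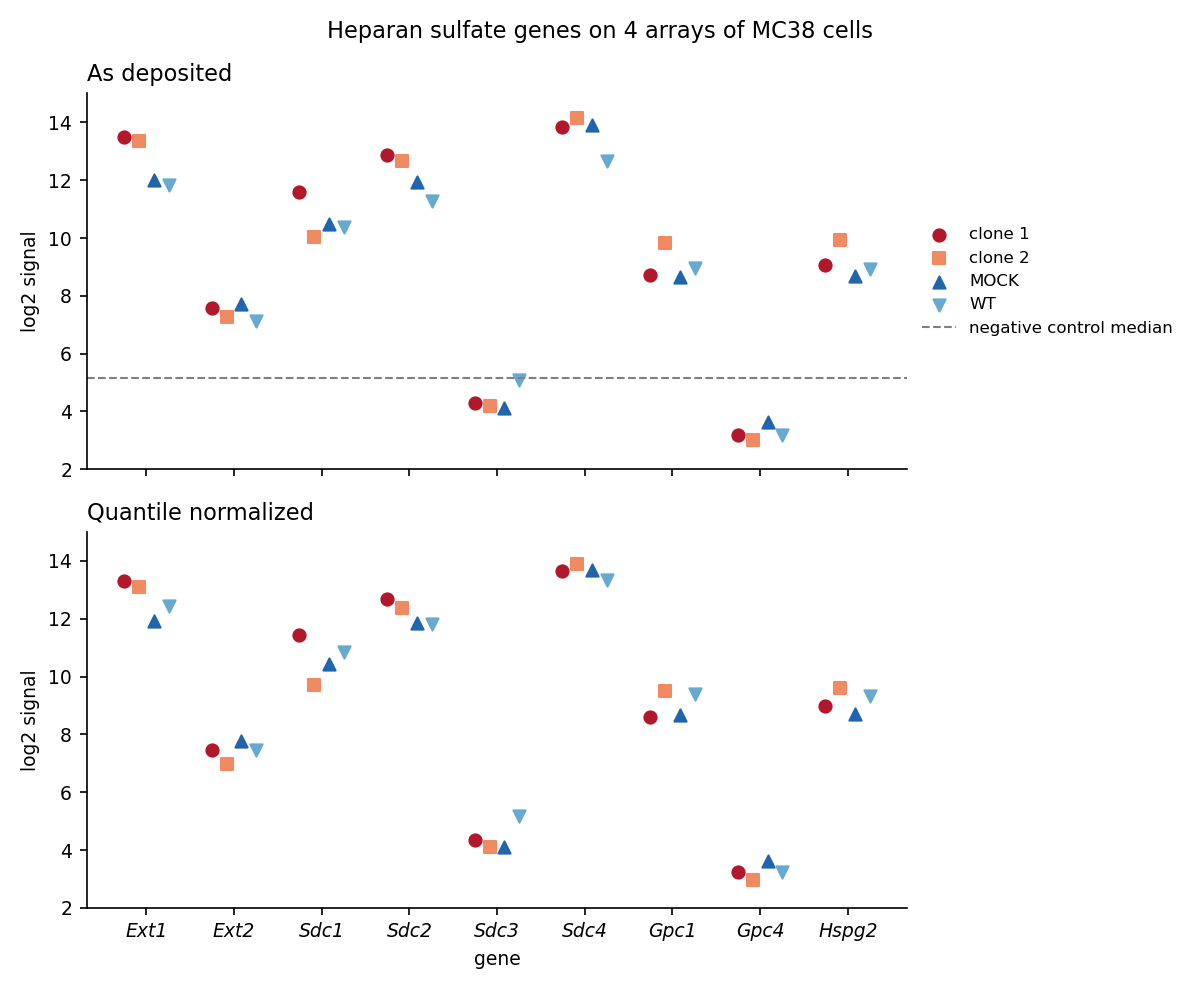
Log2 signal (vertical axis) of the 9 measured genes (horizontal axis), 1 point per array, as deposited above and quantile normalized below, with the mean of the 4 negative control medians as a dashed line. Ext1 and Sdc2 have both clone points above both control points in each panel, and Sdc3 and Gpc4 lie below the dashed line in the upper panel.

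Ext1 encodes a subunit of the polymerase that lengthens the chain. Its signal was 13.50 in clone 1 and 13.37 in clone 2, against 12.00 in MOCK and 11.83 in WT. The clones differed from each other by 0.13 log2 units and the controls by 0.17, while the lowest clone stood 1.37 above the highest control. The group means were 13.44 ± 0.09 in the knockout and 11.92 ± 0.12 in the control (SD, n = 2 each), a 2.87-fold higher level. The difference of 1.52 log2 units had a 95% interval of 0.70 to 2.34 before adjustment (SE 0.37, limma adjusted p = 0.231). After quantile normalization the signals were 13.29 in clone 1 and 13.09 in clone 2, against 11.92 in MOCK and 12.43 in WT. The difference was then 1.02 (SE 0.32, limma adjusted p = 0.479), 2.03-fold, and the gap between the groups 0.66. Over the alternatives the difference ran from 1.02 to 1.60, with adjusted p from 0.156 to 1.00.

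Ext2 encodes the partner subunit of that polymerase, and it did not follow Ext1. Its signal was 7.58 in clone 1 and 7.26 in clone 2, against 7.72 in MOCK and 7.12 in WT, so the groups overlapped. The difference was 0.00 log2 units as deposited, with a 95% interval from -0.88 to 0.88 (SE 0.40, limma adjusted p = 1.00). After quantile normalization it was -0.38, with an interval from -1.14 to 0.38 (SE 0.33, limma adjusted p = 0.763). Its direction thus depends on the scale, and these arrays do not exclude a difference inside these intervals.

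Sdc2, a transmembrane syndecan common on mesenchymal cells, showed the second largest difference. Its signal was 12.86 in clone 1 and 12.67 in clone 2, against 11.94 in MOCK and 11.29 in WT. The knockout mean was 12.76 ± 0.13 and the control mean 11.61 ± 0.46 (SD, n = 2 each), a 2.22-fold higher level (SE 0.40 log2 units, limma adjusted p = 0.433). After quantile normalization the clones read 12.67 and 12.38 and the controls 11.86 in MOCK and 11.83 in WT. The controls then lay within 0.03 of each other, and the lowest clone was 0.52 above them. The difference was 0.68 log2 units, or 1.60-fold (SE 0.30, limma adjusted p = 0.567). Over the alternatives it ran from 0.68 to 1.48.

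Ext1 and Sdc2 lie on the same chromosome, chromosome 15 in the RefSeq table of GRCm38.p6, and the genes of that chromosome were higher in the clones as a group. Over its 403 measured genes with a mean above the negative controls, the median difference was 0.64 log2 units as deposited and 0.25 after quantile normalization. The medians over all 10465 such genes were 0.35 and -0.04. After quantile normalization chromosome 15 had the highest median of the 20 chromosomes compared, followed by chromosome 14 at 0.19 and chromosome 4 at 0.15. Its median was 0.29 in clone 1 and 0.17 in clone 2 against the mean of the controls, and MOCK minus WT was -0.06. Both clones lay above both controls for 39.5% of its genes after quantile normalization, against 18.5% of all these genes. The 40 measured genes nearest to Ext1, 20 on each side, had a median of 0.31, and 17 of the 40 had both clones above both controls. The 40 nearest to Sdc2 had a median of 0.17, and 10 of the 40 did so.

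Both genes stood above that level. Less the median of chromosome 15, the difference of Ext1 was 0.88 log2 units as deposited and 0.77 after quantile normalization. The same values for Sdc2 were 0.51 and 0.43. On chromosome 15, 30 of the 403 genes had a larger difference than Ext1 after quantile normalization and 77 had a larger one than Sdc2. Over all 10465 genes 3.94% had a larger one than Ext1 and 8.99% a larger one than Sdc2. No DNA was measured, and the part of the chromosome in the difference was not tested. The other 7 measured genes lie on chromosomes 1, 2, 4, 12 and X.

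**Figure D2:**
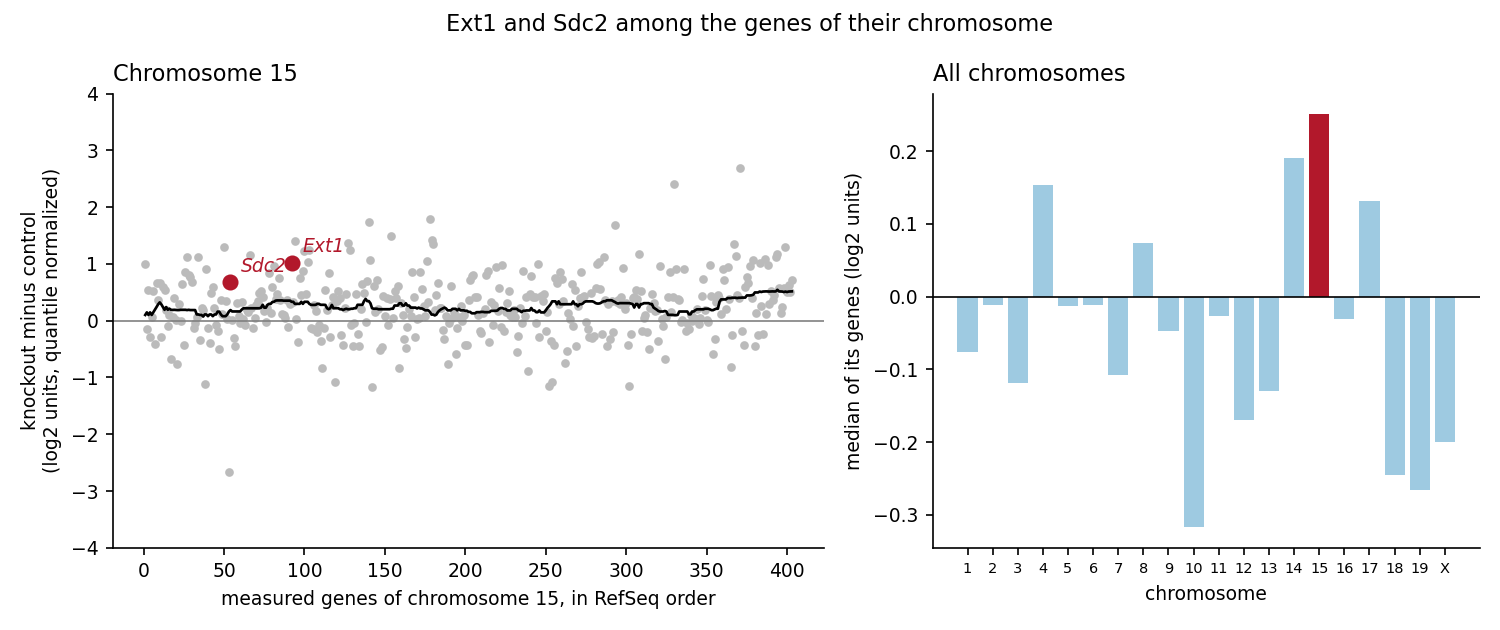
Left, knockout minus control in log2 units after quantile normalization (vertical axis) for the 403 measured genes of chromosome 15 in RefSeq order (horizontal axis), with a running median over 41 genes as the black line. Right, the median of each chromosome's genes, with chromosome 15 in red at 0.25, the highest of the 20; Ext1 and Sdc2 lie above the running median on the left.

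Sdc1 and Sdc4 are shown with the bases before their start sites because the clones parted at the first and stayed close at the second. Promoter sequences from RefSeq (GRCm38.p6) were matched for 6 of the 10 genes, and neither Ext1 nor Sdc2 was among them. The 250 bases before the start are printed 5′ to 3′ on the strand of the gene, chr12:8771146-8771395 on the plus strand for Sdc1 and chr2:164443189-164443438 on the minus strand for Sdc4. Capitals mark matches to GGGCGG (the GC box bound by SP1), TATAA (the TATA box) and the NF-kB motif, each searched on both strands. The TATAA of Sdc1 overlaps its match on the other strand, and the 2 matches together are 1 stretch, TTATAA.
Sdc1: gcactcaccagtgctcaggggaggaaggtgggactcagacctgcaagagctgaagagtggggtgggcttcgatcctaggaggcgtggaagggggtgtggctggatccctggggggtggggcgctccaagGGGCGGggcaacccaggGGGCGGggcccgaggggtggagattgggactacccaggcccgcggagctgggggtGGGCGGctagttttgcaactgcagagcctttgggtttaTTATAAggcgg
Sdc4: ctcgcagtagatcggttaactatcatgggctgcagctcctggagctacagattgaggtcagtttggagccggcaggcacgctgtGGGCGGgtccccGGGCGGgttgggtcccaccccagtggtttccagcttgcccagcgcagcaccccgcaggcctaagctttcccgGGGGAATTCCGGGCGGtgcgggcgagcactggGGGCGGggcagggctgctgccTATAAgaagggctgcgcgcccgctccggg
The stretch of Sdc1 holds 3 GC boxes and 1 TTATAA, whose matches on the 2 strands begin 11 and 10 bases before the start. That of Sdc4 holds 4 GC boxes and 1 TATA box that begins 29 bases before the start. It also holds 1 NF-kB match that begins 82 bases before the start. Over the 32851 promoters in the table, 32.7% hold a GC box in the same 250 bases, 22.8% a TATA box and 3.90% an NF-kB match. These matches are a description of letters and say nothing about binding in these cells.

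Sdc1, the epithelial syndecan, differed between the clones and not in 1 direction from the controls. Its signal was 11.58 in clone 1 and 10.03 in clone 2, against 10.49 in MOCK and 10.38 in WT. Clone 1 lay above both controls and clone 2 below both. The clones were 1.56 log2 units apart, or 1.73 after quantile normalization, while MOCK and WT were 0.11 and 0.43 apart. Each clone is 1 array, so this difference has no replicate check. The group difference was 0.37 (SE 0.50, limma adjusted p = 0.872), and -0.071 after quantile normalization (SE 0.53, limma adjusted p = 0.978).

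Sdc4, a syndecan of focal adhesions, differed between the groups mainly through the WT array. Its signal was 13.84 in clone 1 and 14.17 in clone 2, against 13.90 in MOCK and 12.67 in WT. MOCK lay between the clones, and MOCK and WT were 1.24 log2 units apart. The group difference of 0.72 (SE 0.46, limma adjusted p = 0.708) became 0.10 without WT and 1.34 without MOCK. After quantile normalization, which lifted WT to 13.33, it was 0.27 with an interval from -0.46 to 0.99 (SE 0.31, limma adjusted p = 0.832).

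Sdc3, the syndecan best known from nervous tissue, was not above the negative control median on any array. Its signal was 4.28 in clone 1 and 4.18 in clone 2, against 4.13 in MOCK and 5.08 in WT. No fold is given for it. The syndecans thus read differently on these arrays: Sdc2 higher in both clones, Sdc1 higher in clone 1 alone, Sdc4 near MOCK in both. Sdc3 stayed at the level of the negative controls. Differences between the syndecans were not tested.

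Gpc1, a glypican found on many tumour cells, read 8.71 in clone 1 and 9.83 in clone 2, against 8.65 in MOCK and 8.97 in WT. As deposited, clone 1 lay between the controls and clone 2 above them. After quantile normalization clone 1, at 8.60, lay below both controls and clone 2, at 9.51, above both. The controls then read 8.69 in MOCK and 9.40 in WT. The clones were 1.12 log2 units apart, or 0.92 after quantile normalization. The group difference was 0.45 as deposited and 0.01 after quantile normalization (SE 0.45 and 0.41, limma adjusted p = 0.809 and 0.995). Gpc4 read 3.20 in clone 1 and 3.02 in clone 2, against 3.65 in MOCK and 3.20 in WT, below the negative control median on all 4 arrays. Of the glypicans outside the 10 genes, Gpc2, Gpc3 and Gpc5 were below it on all arrays too. Gpc6 read 5.86 in clone 1 and 7.68 in clone 2, against 6.47 in MOCK and 5.72 in WT, so its high array was clone 2, as for Gpc1.

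Hspg2 encodes perlecan, the large core protein of basement membranes. Its signal was 9.07 in clone 1 and 9.93 in clone 2, against 8.69 in MOCK and 8.91 in WT. Both clones lay above both controls as deposited, by 0.16 log2 units for the lowest clone. After quantile normalization the order was broken, with 8.97 and 9.62 in the clones against 8.72 in MOCK and 9.33 in WT. The difference was 0.70 as deposited (SE 0.42, limma adjusted p = 0.681) and 0.27 after quantile normalization (SE 0.37, limma adjusted p = 0.862).

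Clone to clone, 2 of the 9 genes were at least 1 log2 unit apart as deposited, Sdc1 and Gpc1, where 12.7% of all probe sets were. After quantile normalization only Sdc1 of the 9 was, where 11.3% of all probe sets were. Sdc1 was higher in clone 1 and Gpc1 and Hspg2 were higher in clone 2. Between MOCK and WT, 1 of the 9 was that far apart as deposited, Sdc4, against 10.1% of all probe sets. After quantile normalization it was Sdc3, which lies at the level of the negative controls, against 4.52%.

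**Figure D3:**
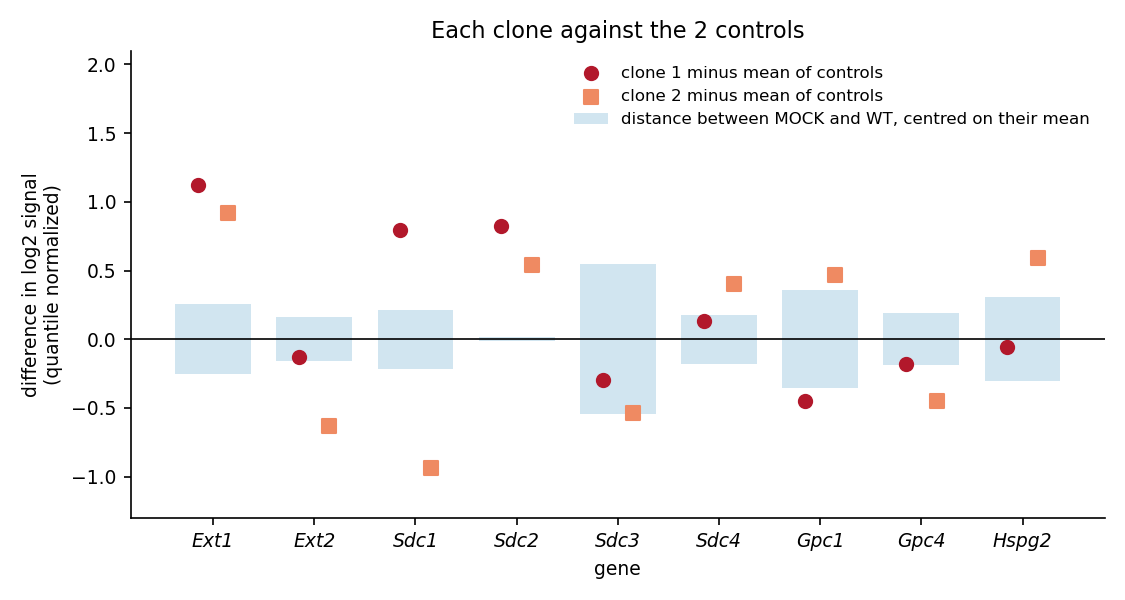
Difference of each clone from the mean of MOCK and WT after quantile normalization (vertical axis, log2 units) for the 9 genes, with shaded bars as tall as the distance between MOCK and WT. Both clones lie above the bar for Ext1 and Sdc2. The clones lie on opposite sides of it for Sdc1, at 0.79 in clone 1 and -0.94 in clone 2. They do so for Gpc1 too, at -0.45 in clone 1 and 0.47 in clone 2.

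The other genes of the heparan sulfate pathway were described from lists, with 54 of 59 measured and 36 with a mean above the negative control median. Limma called 0 of the 54 on either scale, and at an unadjusted p under 0.05 it found 4 as deposited and 5 after quantile normalization, near the 8.75% and 8.92% of all probe sets. Of the 54, 39 were higher and 15 lower as deposited, and 29 and 25 after quantile normalization. Over all probe sets 14460 were higher and 7746 lower as deposited, and 10723 and 11483 after quantile normalization. The median difference of the 54 was 0.31 log2 units and 0.06. Both clones lay above both controls for 18 of the 54 as deposited and 12 after quantile normalization, beside the 27.8% and 19.2% of all probe sets given above.

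Of the 7 genes that build the linker, 6 were higher as deposited and 5 after quantile normalization, with medians of 0.24 and 0.08. Of all 22206 probe sets 14460 and 10723 were higher. Xylt1, which puts the first xylose on the core protein, read 7.14 in clone 1 and 8.14 in clone 2, against 6.14 in MOCK and 6.61 in WT. Its groups did not overlap on either scale, and its difference was 1.26 as deposited and 0.89 after quantile normalization (limma adjusted p = 0.444 and 0.568). Fam20b, the kinase that phosphorylates that xylose, differed by 0.68 and 0.23. B3galt6, which adds a galactose of the linker, differed by -0.40 and -0.58. The EXT relatives Extl2 and Extl3 differed by 0.47 and 0.46 as deposited, which quantile normalization brought to 0.07 and 0.06.

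Among the sulfation enzymes most were dim. Only 2 of 11 O-sulfotransferases lay above the negative control median on all arrays, Hs6st1 and Hs2st1, and they went opposite ways. Hs6st1, which sulfates the 6-position of glucosamine, read 6.61 in clone 1 and 7.53 in clone 2, against 5.24 in MOCK and 5.90 in WT (limma adjusted p = 0.353). Its difference of 1.50 log2 units, 1.23 after quantile normalization, was of the size of that of Ext1, although MOCK lay close to the negative controls. Hs2st1, which sulfates the uronic acid and lies outside the rule for naming genes, read 8.84 in clone 1 and 8.69 in clone 2, against 9.06 in MOCK and 8.98 in WT. Its difference was -0.26 and, after quantile normalization, -0.68 (limma adjusted p = 0.882 and 0.583). Of the other NDST enzymes, Ndst2 differed by 0.30 as deposited and -0.16 after quantile normalization, so its direction depends on the scale. Ndst3 differed by -0.18 and -0.39, with both clones below both controls only after quantile normalization, and Ndst4 was below the negative controls on all arrays.

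Of 9 genes for sulfate and sugar donors, 5 were higher as deposited and 2 after quantile normalization, beside 14460 and 10723 of all 22206 probe sets. Ugdh, which makes the UDP-glucuronic acid of the chain, differed by 0.69 and 0.24 log2 units. Of the enzymes that edit or cut finished chains outside the cell, Sulf2, a 6-O-endosulfatase, read 11.24 in clone 1 and 10.35 in clone 2, against 10.25 in MOCK and 9.41 in WT. Its difference was 0.97 as deposited and 0.54 after quantile normalization. The heparanase gene Hpse differed by 0.32 and -0.11. Of 7 lysosomal enzymes that degrade the chain, 5 were higher on either scale, beside the same 14460 and 10723 of all 22206 probe sets. Idua, the iduronidase, differed by 1.15 and 0.74, and Ids, the iduronate sulfatase, by -0.48 and -0.91.

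Agrn was the other core protein with groups that did not overlap on either scale and a signal above the negative controls. It encodes agrin, a secreted heparan sulfate proteoglycan of basement membranes and neuromuscular junctions. Its signal was 9.76 in clone 1 and 8.93 in clone 2, against 7.97 in MOCK and 7.97 in WT. The difference was 1.38 as deposited, or 2.60-fold, and 0.96 after quantile normalization (limma adjusted p = 0.355 and 0.540). Agrn lies on chromosome 4, whose genes had the third highest median. Cd44, some forms of which carry the chain, differed by 0.42 and -0.06.

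**Figure D4:**
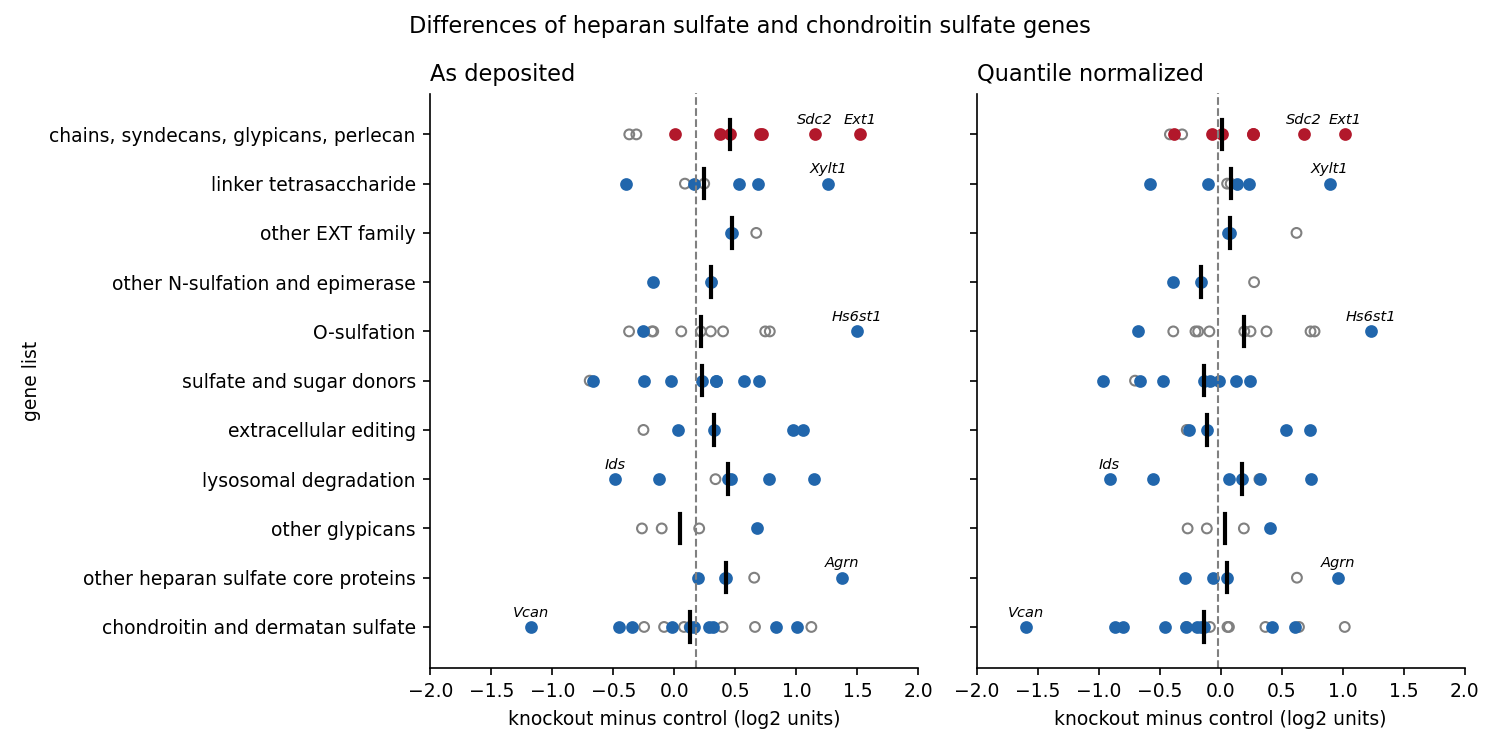
Knockout minus control in log2 units (horizontal axis) for each measured gene of 11 lists (vertical axis), as deposited on the left and quantile normalized on the right; filled points lie above the negative control median on all 4 arrays, open points do not, short bars are list medians and the dashed line is the median of all probe sets. Ext1, Sdc2, Xylt1, Hs6st1 and Agrn stay to the right of the dashed line in both panels, and the list medians shift left after quantile normalization.

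Chondroitin sulfate, the sister chain that grows from the same linker, gave a median of 0.13 log2 units over 17 measured genes, or -0.14 after quantile normalization, and limma called 0 of them, with 3 at an unadjusted p under 0.05 on either scale, beside 8.75% and 8.92% of all probe sets. Vcan, which encodes the chondroitin sulfate core protein versican, read 8.96 in clone 1 and 10.53 in clone 2, against 11.09 in MOCK and 10.75 in WT. Its difference of -1.18, or -1.60 after quantile normalization, ran against those of Ext1 and Sdc2 (limma adjusted p = 0.545 and 0.421). Ust, which sulfates the uronic acid of chondroitin, differed by 1.00 and 0.61.

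Partners of the chains and cores were called in no case, 0 of 44 by limma over the lists of tail partners, sheddases, ligands and receptors, with 5 at an unadjusted p under 0.05 as deposited and 4 after quantile normalization. These counts are near the 8.75% and 8.92% of all probe sets. Cask, a scaffold that binds syndecan tails, read 9.65 in clone 1 and 10.61 in clone 2, against 9.26 in MOCK and 8.58 in WT. Sdcbp, which encodes the tail partner syntenin, differed by 0.46 and -0.01. Mmp14, a membrane protease that can cut syndecans, read 11.44 in clone 1 and 13.07 in clone 2, against 10.94 in MOCK and 11.19 in WT. After quantile normalization clone 1, at 11.30, lay between MOCK at 10.88 and WT at 11.73, and only clone 2, at 12.79, lay above both. Mmp9 read 5.47 in clone 1 and 8.33 in clone 2, against 5.31 in MOCK and 6.05 in WT, so its high array was clone 2 too. Of 19 ligands 11 were higher as deposited and 8 after quantile normalization, with Thbs1 at 1.84 and 1.38. Thbs1, which encodes thrombospondin-1, read 10.76 in clone 1 and 12.68 in clone 2, against 9.24 in MOCK and 10.52 in WT. Of 11 receptors 6 were higher as deposited and 2 after quantile normalization, with Met at -0.59 and -1.03 and Lrp1 at -0.50 and -0.93. Over all 22206 probe sets 14460 and 10723 were higher. Both clones lay below both controls for 3 of the 11 receptors as deposited and 6 after quantile normalization. The shares of all probe sets were 11.7% and 21.3%. Kdr and Fgfr4, which are in both counts, were below the negative control median on all arrays.

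The genes most like Ext1 over the 4 arrays, by Euclidean distance between centred quantile-normalized profiles, were Xcr1, Tstd3 and 6430548M08Rik, at 0.06, 0.09 and 0.09 log2 units. They lie on chromosomes 9, 4 and 8, and Xcr1 was below the negative control median on all arrays. Tstd3 was below that median in MOCK and WT, at 4.21 and 4.63, and 6430548M08Rik in MOCK, at 4.91. For Sdc3, the gene of the 9 with the lowest difference after quantile normalization, the nearest genes were Vmn1r212, Slc25a53 and Tmf1. With 4 arrays such likeness is a description of the profile alone.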

How the data were processed

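Per the labels, RNA of 4 MC38 samples was hybridised to the Clariom S mouse array, 1 array each, and the authors processed it with the Transcriptome Analysis Console. The values they deposited are log2 signals, already normalized; the log2 scale was read from the range. The normalization method, filters, annotation and genome build behind them are not stated in the labels or the file. Groups came from the titles, since a cell label names the knockout on all 4 samples. Of 28846 features, 6640 control features were left out and 22206 probe sets tested. The platform annotation named 19572 of them, and 0 symbols changed through Entrez identifiers. Negative controls are the 5222 features so marked.

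The test was limma 3.58.1 (R 4.3.3), lmFit and eBayes, knockout minus control, with Benjamini-Hochberg adjustment over all 22206 probe sets. Intervals are limma's 95% intervals, not adjusted. limma was tested on simulated data that gave each probe set the same spread and no difference of scale between arrays, unlike the arrays here. Quantile normalization was run over the probe sets tested. Chromosomes and gene order came from RefSeq (GRCm38.p6), which is not known to be the array's build. Genes and lists were chosen with earlier results of these data known. The text names the 10 genes and, for 2 genes, the 3 nearest profiles. From each other list it names any gene called and some of the 4 with the largest difference as deposited. The genes named are not always the largest of their list. Hpse2, at 1.05, and Cspg4, at 1.12, were passed over for genes with smaller differences. Alternatives were quantile normalization, median centring, filters on dim probe sets, trend and robust estimation, the mean of a gene's probe sets, and each array left out.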

Additional observations from a re-analysis of the deposited data

How the results depend on the processing

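Over the 10 alternatives, 79 of 87 differences of the 9 genes kept their direction and limma called none of them in any, a count of 0. The filters, trend and robust estimation and the averaging of probe sets left each difference unchanged. They could not turn a direction, so part of the 79 was fixed in advance. Under quantile normalization, median centring and left-out arrays, which could turn it, Ext1, Sdc2, Sdc4, Gpc4 and Hspg2 kept their direction. Ext2 turned to -0.38 after quantile normalization and -0.14 after median centring, and left-out arrays moved it between -0.30 and 0.30. Sdc1 turned to -0.071 after quantile normalization, and left-out arrays moved it between -0.41 (without clone 1) and 1.15. Sdc3 turned to 0.11 without WT, in a range from -0.85, and Gpc1 to -0.11 without clone 2, in a range up to 1.01. limma called 9 probe sets as deposited and 1 after quantile normalization, 196 when dim probe sets below the median were left out and 125 when the dimmest 25% were, and 340 with trend and robust estimation. With each array left out it called 0 to 529, and at an unadjusted p under 0.05 it found 832 without WT, where it called 0. The cause of these moves was not tested. With each array left out, the number of the 9 genes with the knockout arrays above the control arrays, an alternative chosen after seeing the data, ran from 4 to 5, against 3, while the share of all probe sets ran from 35.0% to 54.7%, against 27.8%. Each of the 9 genes had 1 probe set, so averaging probe sets changed no signal of theirs; filters removed Sdc3 and Gpc4. No paired analysis was possible because the labels number only the clones and give the controls no replicate number.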
